A study of Mus musculus with 9 samples.

Results

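Cytochrome P450 (Cyp) and flavin monooxygenase (Fmo) genes were examined in RNA-seq of the aging mouse brain. The members were the protein-coding genes whose symbol consists of Cyp with a family number, a subfamily letter and a gene number, or of Fmo with a gene number. Cyp46a1 was left out by this rule. The rule gave 99 members, 92 Cyp and 7 Fmo genes, among 49315 gene IDs of which 21811 were protein coding. The comparison was between whole brains of young mice (3 months by the sample labels, n = 5) and old mice (33 months, n = 4). All mice were C57BL/6J with a wild-type (WT) genotype, and the study's methods give them as males. The labels name no transgene, deletion or treatment for either group.

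Cytochromes P450 are heme enzymes that insert an oxygen atom into steroids, fatty acids, vitamins and foreign compounds. Those of the endoplasmic reticulum receive electrons from the NADPH reductase encoded by Por, and those of mitochondria from ferredoxin. Flavin monooxygenases carry out a related reaction on nitrogen and sulfur atoms with a flavin instead of heme. Most members are known from liver, lung and endocrine glands, and a smaller number make or break down signaling lipids, neurosteroids, oxysterols and retinoic acid in brain.

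The largest differences with age among members that passed the test were a rise of Fmo2, a rise of Cyp1b1 and a fall of Cyp11a1. Of the 29 members with enough counts to be tested, 6 were higher and 1 was lower in old brain at an adjusted p under 0.05 (edgeR's quasi-likelihood test, Benjamini-Hochberg adjustment over all 18492 genes tested). This is 24.1% of the tested members, against 11.0% of all tested genes (6.09% higher and 4.89% lower). The higher members were Fmo2, Cyp1b1, Fmo1, Cyp2d22, Cyp4f15 and Cyp4v3, and the lower member was Cyp11a1. With the study's additional threshold of an absolute log2 fold change over 0.58, Fmo2 and Cyp1b1 were higher and Cyp11a1 was lower, where 2.50% of all tested genes passed (2.13% higher and 0.373% lower). The median log2 fold change (old over young) of the 29 tested members was 0.18, with 20 values above 0 and 9 below, and the median of all tested genes was -9.2e-05. The CPM ranges of the ages did not overlap for 9 tested members, the 7 named above and Cyp27a1 and Cyp3a13, while 12.6% of all tested genes had no overlap. On the authors' TPM scale, where the single gene Gm23935 took 8.68% to 39.5% of each library, the median of all tested genes was shifted to -0.16 at a pseudocount of 0.1 and -0.14 at 1, and that of the members to 0.03 and 0.02. There Fmo2 and Cyp11a1 passed (limma), and Cyp1b1, Fmo1, Cyp2d22, Cyp4f15 and Cyp4v3 did not. Cyp2e1, which edgeR did not call, was higher there.

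**Figure D1:**
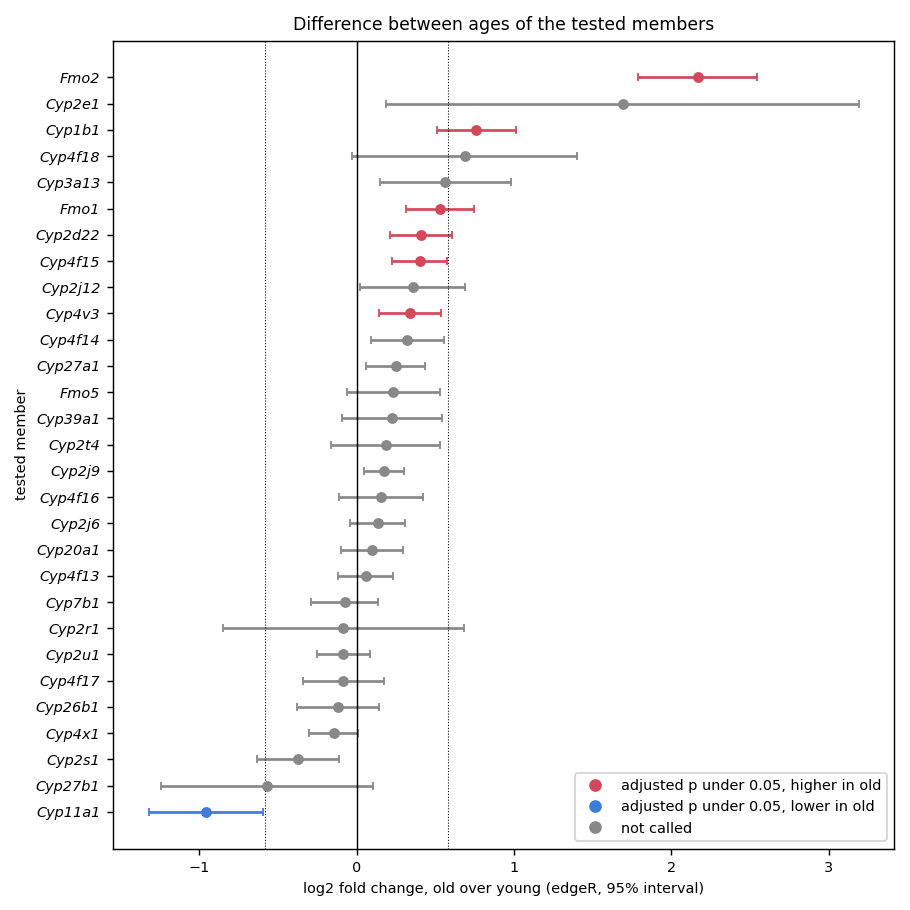
Log2 fold change of the 29 tested members between old and young brain (horizontal axis, edgeR estimate with its 95% interval), with dotted lines at an absolute value of 0.58. Fmo2 lay farthest to the right at 2.17 and Cyp11a1 farthest to the left at -0.96, and the 22 members that were not called are in gray.

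Fmo2 (ENSMUSG00000040170, chr1:162874317-162898726, minus strand, GRCm38) encodes a flavin monooxygenase best known from lung. Its level was 3.45, 2.66, 1.72, 2.17 and 1.91 CPM (read counts relative to library sizes adjusted by TMM) in young mice 1 to 5. In old mice 1, 3, 4 and 5 it was 12.2, 11.1, 12.1 and 7.98 CPM. The lowest old mouse was thus above the highest young mouse by more than the whole range of the young group. The mean rose from 2.38 ± 0.692 (SD, n = 5) to 10.8 ± 1.97 CPM (SD, n = 4), a fitted 4.49-fold difference, with a log2 fold change of 2.17 (SE 0.177, edgeR, Benjamini-Hochberg adjusted p = 6.5e-06). Fmo2 was called in each of the alternative analyses, with adjusted p-values between 8.0e-54 and 5.7e-05.

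Fmo1, a flavin monooxygenase with broad activity toward amines and sulfides, lies beside Fmo2 on the same strand (chr1:162829561-162866610). Young mice held 6.43, 6.64, 5.70, 6.28 and 7.41 CPM of Fmo1, and old mice 9.56, 9.31, 8.21 and 10.5 CPM. The ages did not overlap, although the gap between them was narrow. The mean rose from 6.49 ± 0.620 to 9.40 ± 0.945 CPM (SD, n = 5 and n = 4), with a log2 fold change of 0.53 (SE 0.103, edgeR, Benjamini-Hochberg adjusted p = 0.0032). Fmo5, which is encoded on chromosome 3, had 4.11 ± 0.608 CPM in young mice against 4.83 ± 0.604 CPM in old mice, and its log2 fold change of 0.23 had a 95% interval from -0.06 to 0.53. Fmo4 and Fmo6 of the same chromosome 1 cluster were close to 0, with 22 and 5 counts over all 9 libraries, and Fmo9 had 0. These counts were too low for a comparison between ages.

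Cyp1b1 (ENSMUSG00000024087, chr17:79701537-79715061, minus strand) encodes a P450 that oxidizes estrogens, retinoids and polycyclic aromatic compounds, and it is a known target of the aryl hydrocarbon receptor. The young mice were closely alike, at 4.49, 4.59, 4.19, 4.40 and 4.69 CPM. The old mice held 6.11, 9.03, 7.93 and 7.40 CPM, all above the young range and more widely spread. The mean rose from 4.47 ± 0.193 to 7.62 ± 1.21 CPM (SD, n = 5 and n = 4), with a log2 fold change of 0.76 (SE 0.119, edgeR, Benjamini-Hochberg adjusted p = 0.00064). The other members of its family, which are the classical targets of this receptor, were near or at 0, with 8 counts for Cyp1a1 and 0 for Cyp1a2 over all 9 libraries. On the TPM scale its values were not past the threshold (log2 fold change 0.57 at a pseudocount of 0.1 and 0.43 at 1, limma, Benjamini-Hochberg adjusted p = 0.18 and adjusted p = 0.15).

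Among 14 genes of the aryl hydrocarbon and xenobiotic receptor pathways, 13 were tested, and 1 was higher and 1 lower. Of all tested genes, 11.0% were called. Arnt2, a partner of the receptor's class of transcription factors that is common in neurons, rose with a log2 fold change of 0.12 (edgeR, Benjamini-Hochberg adjusted p = 0.046). The receptor gene Ahr and its repressor Ahrr had log2 fold changes of -0.23 and -0.19, the further target genes Tiparp and Nqo1 had -0.10 and 0.30, and none of these passed the test. With any single mouse left out, this list held 1 call in place of 2.

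Cyp11a1 (ENSMUSG00000032323, chr9:58006411-58027023, plus strand) encodes the mitochondrial enzyme that cleaves the side chain of cholesterol to give pregnenolone, the first step of steroid and neurosteroid synthesis. Young mice held 3.08, 3.10, 4.05, 3.82 and 3.15 CPM. The 4 old mice held 1.65, 1.34, 1.86 and 2.17 CPM, each below the lowest young mouse. The mean fell from 3.44 ± 0.460 to 1.75 ± 0.351 CPM (SD, n = 5 and n = 4), with a log2 fold change of -0.96 (SE 0.173, edgeR, Benjamini-Hochberg adjusted p = 0.0020). Cyp11a1 was called in each of the alternative analyses, with adjusted p-values between 3.4e-05 and 0.0075. It shares 145 bases of exon with the long noncoding RNA gene Gm17322 on the same strand, which also fell (log2 fold change -0.79, edgeR, Benjamini-Hochberg adjusted p = 0.0058), and the part of this neighbor in the Cyp11a1 result was not tested.

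The promoters of the 3 members past the fold threshold show what lies ahead of their starts, as 250 bases before each start in RefSeq (GRCm38.p6), read 5′ to 3′ in the direction of the gene. Capitals mark GCGTG, the core to which the aryl hydrocarbon receptor binds, and AGGTCA, a nuclear receptor element, both searched on both strands.
Cyp1b1, chr17:79715062-79715311, minus strand: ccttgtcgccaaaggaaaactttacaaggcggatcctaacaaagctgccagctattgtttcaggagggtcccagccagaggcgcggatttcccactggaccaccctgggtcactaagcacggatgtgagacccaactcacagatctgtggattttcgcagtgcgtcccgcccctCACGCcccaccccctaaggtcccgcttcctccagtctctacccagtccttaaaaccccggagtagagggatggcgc
Fmo2, start 1, chr1:162898494-162898743, minus strand: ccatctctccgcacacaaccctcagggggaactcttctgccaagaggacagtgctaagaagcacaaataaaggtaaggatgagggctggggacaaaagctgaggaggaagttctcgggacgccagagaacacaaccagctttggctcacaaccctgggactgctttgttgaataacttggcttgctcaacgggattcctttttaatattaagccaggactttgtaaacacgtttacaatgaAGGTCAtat
Fmo2, start 2, chr1:162898759-162899008, minus strand: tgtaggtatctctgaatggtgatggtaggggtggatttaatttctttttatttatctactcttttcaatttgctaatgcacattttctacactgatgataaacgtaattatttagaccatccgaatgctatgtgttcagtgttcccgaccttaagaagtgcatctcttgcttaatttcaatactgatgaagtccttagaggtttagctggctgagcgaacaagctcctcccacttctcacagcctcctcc
Cyp11a1, start 1, chr9:57997774-57998023, plus strand: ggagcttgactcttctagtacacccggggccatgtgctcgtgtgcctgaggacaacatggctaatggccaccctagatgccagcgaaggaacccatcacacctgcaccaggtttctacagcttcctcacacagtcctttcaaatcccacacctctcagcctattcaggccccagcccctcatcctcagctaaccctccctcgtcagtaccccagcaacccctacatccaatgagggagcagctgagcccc
Cyp11a1, start 2, chr9:58014702-58014951, plus strand: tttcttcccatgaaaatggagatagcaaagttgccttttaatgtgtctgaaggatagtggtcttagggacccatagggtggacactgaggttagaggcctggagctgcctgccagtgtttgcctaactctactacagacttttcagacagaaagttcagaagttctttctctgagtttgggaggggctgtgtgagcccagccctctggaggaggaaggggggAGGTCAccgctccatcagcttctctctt
The Cyp1b1 window held 1 GCGTG, read as CACGC on the printed strand, and no AGGTCA. The first Fmo2 window and the second Cyp11a1 window each held 1 AGGTCA, and the other 2 windows held neither motif. Over all 32817 promoter windows of this length, 28.1% held GCGTG and 14.03% held AGGTCA. Of the 29 tested members, 22 had a promoter entry, and 7 of these held GCGTG and 3 held AGGTCA in at least 1 of their windows. These are counts of genes, some with more than 1 window, and are not on the scale of the shares of single windows. Start 1 of Cyp11a1 in RefSeq (chr9:57998024) lay before the gene position given above, and start 2 (chr9:58014952) lay within it. Neither Cyp11a1 window thus covered the first base of the gene model used for counting. For Fmo2, start 1 (chr1:162898493) lay within the gene position given above, and start 2 (chr1:162898758) lay before it. Most of the first Fmo2 window, with its AGGTCA, was thus inside the span of the counted gene model. The motif matches describe the letters only, since no binding was measured.

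**Figure D2:**
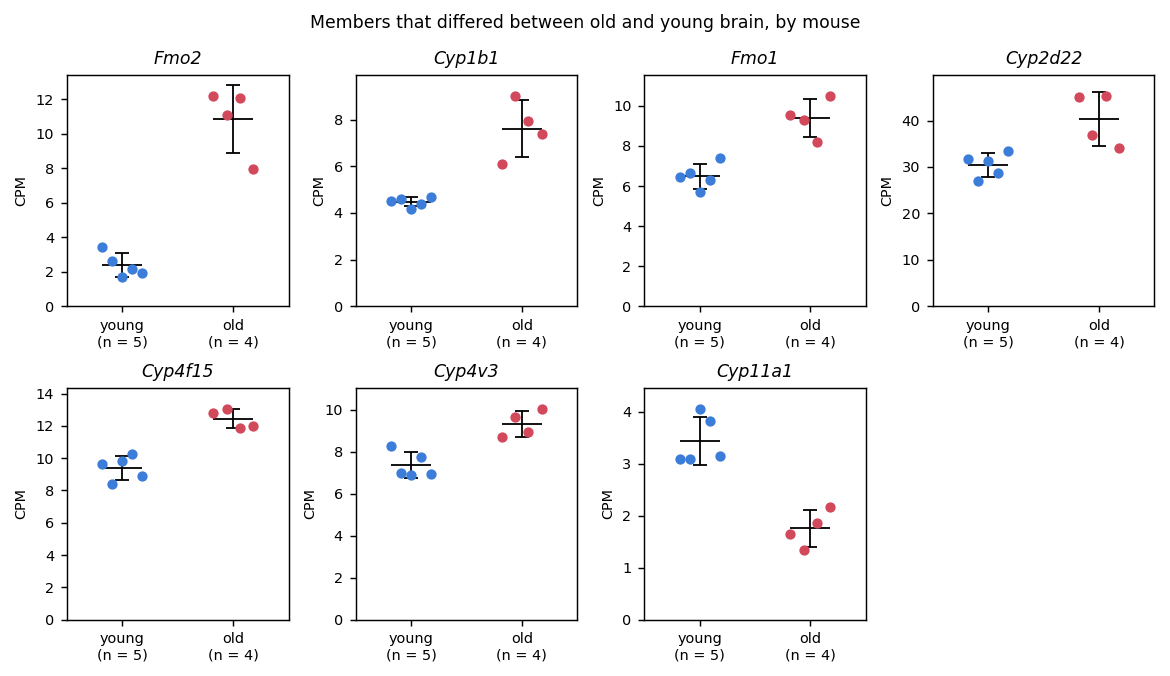
Level in CPM (vertical axis, from 0) of the 7 members that differed between ages, with 1 point per mouse, a horizontal line at the mean and bars of ± 1 SD (5 young, blue; 4 old, red). The points of the 2 ages did not overlap in any of the 7 panels.

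The other tested genes of steroid and bile acid synthesis did not pass the test. Of 11 members in this group 4 were tested, and Cyp11a1 was the only one of them that passed. Cyp27a1, the mitochondrial sterol hydroxylase that makes oxysterols and bile acid precursors, was at 9.56, 8.80, 9.55, 11.0 and 10.9 CPM in young and 11.4, 11.7, 13.0 and 11.3 CPM in old mice. Its ages did not overlap, but it did not pass the test (log2 fold change 0.25, edgeR, Benjamini-Hochberg adjusted p = 0.080). The oxysterol hydroxylases Cyp7b1 and Cyp39a1 had log2 fold changes of -0.08 (95% interval -0.29 to 0.14) and 0.22 (95% interval -0.09 to 0.54). Aromatase (Cyp19a1) and the hydroxylase and lyase Cyp17a1 were detected with 22 and 11 counts over all 9 libraries, and the adrenal enzymes Cyp11b1 and Cyp11b2 with 0. The sterol hydroxylase Cyp8b1 had too few counts for the test, at 3, 3, 3, 4 and 1 counts in young and 7, 5, 4 and 4 counts in old mice.

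Of 17 further genes of steroid synthesis, 16 were in the table, 10 were tested and 1 passed, where 11.0% of all tested genes did. The gene that passed was Tspo, a protein of the outer mitochondrial membrane linked to cholesterol handling and widely used as a marker of reactive glia. It held 3.71, 2.99, 3.78, 3.72 and 4.14 CPM in young and 6.27, 6.91, 8.26 and 7.04 CPM in old mice, with no overlap. Its log2 fold change was 0.96 (SE 0.124, edgeR, Benjamini-Hochberg adjusted p = 0.00012), opposite in sign to that of Cyp11a1. Star, which delivers cholesterol to Cyp11a1, had a log2 fold change of 0.0020, and the ferredoxin and ferredoxin reductase genes that supply Cyp11a1 with electrons, Fdx1 and Fdxr, had 0.05 and -0.01.

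The CYP4 group, whose enzymes hydroxylate fatty acids and eicosanoids at the end of the chain, held 17 members, of which 8 were tested and 2 were higher in old brain. Cyp4f15 (chr17:32685627-32703352) was at 9.62, 8.41, 9.83, 10.2 and 8.90 CPM in young and 12.8, 13.0, 11.87 and 11.97 CPM in old mice. Each old mouse was above each young mouse, and the old mice were closely alike. The mean rose from 9.40 ± 0.737 to 12.4 ± 0.588 CPM (SD, n = 5 and n = 4), with a log2 fold change of 0.40 (SE 0.083, edgeR, Benjamini-Hochberg adjusted p = 0.0048). Cyp4v3 (chr8:45304944-45333216), the counterpart of a human fatty acid hydroxylase linked to corneal and retinal dystrophy, was at 8.26, 6.97, 6.87, 7.73 and 6.92 CPM in young and 8.71, 9.66, 8.92 and 10.04 CPM in old mice. Its ages were separate by a small gap, and its log2 fold change was 0.34 (SE 0.094, edgeR, Benjamini-Hochberg adjusted p = 0.027). Cyp4v3 shares 313 bases of exon with the protein-coding gene Gm45753 on the same strand, which had 0 counts in each library. The part of this overlap in the Cyp4v3 counts was not tested. Leaving out young mouse 2, 3 or 5, or old mouse 3 or 5, moved the adjusted p of Cyp4v3 to between 0.052 and 0.087.

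Cyp4f15 lies in a cluster of Cyp4f genes on chromosome 17, and its expressed neighbors did not pass the test. The young brain held 7.001 ± 0.613 CPM of Cyp4f14 and the old brain 8.70 ± 1.21 CPM (SD, n = 5 and n = 4, log2 fold change 0.32, edgeR, Benjamini-Hochberg adjusted p = 0.067). Without old mouse 3, which held the lowest old value of 6.98 CPM, Cyp4f14 passed with an adjusted p of 0.022. With any other mouse left out it did not pass (edgeR, adjusted p between 0.077 and 0.18). Cyp4f13, Cyp4f16 and Cyp4f17 had log2 fold changes of 0.06, 0.16 and -0.09, each with a 95% interval that spanned 0. Cyp4x1, a P450 known to be abundant in brain, had 17.1 ± 1.62 CPM in young mice against 15.4 ± 0.442 CPM in old mice and did not pass (log2 fold change -0.15, edgeR, Benjamini-Hochberg adjusted p = 0.23).

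Cyp4f18, an enzyme that oxidizes leukotrienes in neutrophils, gave 13, 14, 8, 31 and 13 counts in young and 31, 17, 39 and 11 counts in old mice. Young mouse 4 and old mouse 4 were the highest of their groups, and old mouse 5 was below young mouse 4. Young mouse 4 also had the highest summed level of 8 microglial marker genes among young mice, 297 CPM, where the other young mice held 208 to 227 CPM. Old mouse 4 had the highest sum of 8 blood and neutrophil genes, 482 CPM, against 87.3 to 267 CPM in the other 8 mice. Among young mice, however, this sum was highest in young mouse 5 (117 CPM, against 107 CPM in young mouse 4). The microglial sum was highest in old mouse 5 (309 CPM, against 286 CPM in old mouse 4). That mouse had the lowest old Cyp4f18 count. The part of either cell type in the Cyp4f18 counts was not tested, and Cyp4f18 did not pass (log2 fold change 0.69, edgeR, Benjamini-Hochberg adjusted p = 0.22).

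The CYP2 group was the largest, with 47 members, of which 8 were tested and 1 was higher in old brain. Cyp2d22 (chr15:82370527-82380260), a brain-expressed enzyme of the family that in humans handles many centrally acting drugs, was at 31.8, 27.1, 31.3, 28.7 and 33.5 CPM in young and 45.1, 36.9, 45.4 and 34.0 CPM in old mice. Old mouse 5 exceeded young mouse 5 only slightly, while old mice 1 and 4 were well above the young range. The mean rose from 30.5 ± 2.59 to 40.3 ± 5.76 CPM (SD, n = 5 and n = 4), with a log2 fold change of 0.41 (SE 0.091, edgeR, Benjamini-Hochberg adjusted p = 0.012). The other Cyp2d genes of this chromosome 15 cluster were at 0 to 17 counts over all 9 libraries.

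The Cyp2j genes encode epoxygenases of arachidonic acid. Young mice held 23.5 ± 1.21 CPM of Cyp2j9 and old mice 26.5 ± 1.78 CPM (SD, n = 5 and n = 4), a difference that did not pass (log2 fold change 0.17, edgeR, Benjamini-Hochberg adjusted p = 0.076). Cyp2j6 and Cyp2j12 had log2 fold changes of 0.13 and 0.36 and did not pass either. Cyp2u1, a fatty acid hydroxylase of brain, had a log2 fold change of -0.08 with a 95% interval from -0.25 to 0.08. The level of Cyp2s1 was 8.29 ± 0.527 CPM in young mice against 6.43 ± 1.30 CPM in old mice, which narrowly missed the threshold (log2 fold change -0.37, edgeR, Benjamini-Hochberg adjusted p = 0.061). Without old mouse 4, whose 7.77 CPM was the highest old value, Cyp2s1 passed as lower with an adjusted p of 0.024. With any other mouse left out it did not pass (edgeR, adjusted p between 0.054 and 0.19).

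Cyp2e1, the ethanol-oxidizing P450 of liver, gave 7, 4, 8, 6 and 2 counts in young and 11, 10, 4 and 43 counts in old mice. The value of old mouse 5 stood far above all others, and old mouse 4 lay within the young range. Its log2 fold change was 1.69 (SE 0.679, 95% interval 0.19 to 3.19), the second largest among tested members, but it did not pass (edgeR, Benjamini-Hochberg adjusted p = 0.15). Without old mouse 5 the log2 fold change was 0.67 (edgeR, Benjamini-Hochberg adjusted p = 0.45), and without old mouse 4 it was 2.04 (adjusted p = 0.030). On the TPM scale, with all mice, Cyp2e1 passed (limma, Benjamini-Hochberg adjusted p = 0.038 at a pseudocount of 0.1 and adjusted p = 0.013 at 1). Of 8 liver marker genes, Alb, Serpina1a, Fgb, Fga and Ahsg were at 0 to 2 counts in each library and Apoa1 at 1 to 14 counts, with 14 in old mouse 5. The other 2, Apoa2 and Ttr, were tested and not called, and the whole list, mostly Ttr, which choroid plexus also expresses, summed to 476 to 625 CPM in young and 396 to 679 CPM in old mice. The part of liver or any other cells in the Cyp2e1 counts was not tested.

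Cyp2a5, which hydroxylates coumarin and oxidizes bilirubin and heme-related compounds in liver, had too few counts to enter the test. It gave 2, 1, 1, 0 and 1 counts in young and 12, 8, 6 and 5 counts in old mice. All old mice were above all young mice, though the mean CPM of 0.0581 in young brain lay below the 0.145 to 0.211 CPM that 3 counts were worth in these libraries. Cyp2a5 is named because its values were seen to separate the ages, so no test is given for it.

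**Figure D3:**
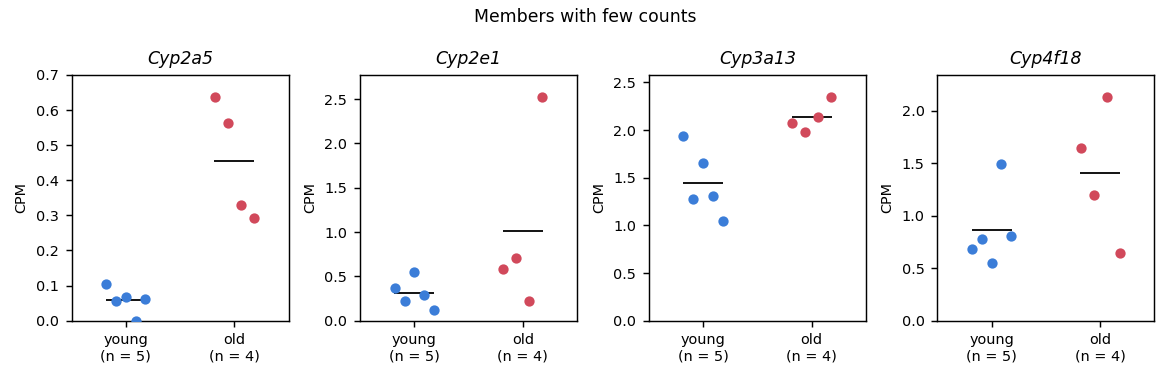
CPM (vertical axis, from 0) of 4 members with few counts, with 1 point per mouse and a horizontal line at the mean (5 young, blue; 4 old, red). Old mouse 5 lay above all other mice for Cyp2e1, and Cyp2a5 and Cyp3a13 were without overlap between ages.

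The single tested CYP3 member, Cyp3a13, belongs to the family that handles most drugs in liver. It was at 1.93, 1.27, 1.65, 1.30 and 1.05 CPM in young and 2.07, 1.97, 2.13 and 2.35 CPM in old mice. The old mice were all slightly above the highest young mouse, young mouse 1. Its log2 fold change of 0.56 (SE 0.198) did not pass (edgeR, Benjamini-Hochberg adjusted p = 0.076), and it passed without young mouse 1 (adjusted p = 0.039). With any other mouse left out it did not pass (edgeR, adjusted p between 0.087 and 0.17). Cyp3a11, the main CYP3 enzyme of mouse liver, gave 8 counts in old mouse 5 and 0 in each of the other 8 mice, so 1 mouse held all of its counts.

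The members that activate or break down vitamin D and retinoic acid showed no call. For vitamin D, the activating hydroxylases Cyp27b1 and Cyp2r1 were tested on 94 and 98 counts in all, with log2 fold changes of -0.57 (95% interval -1.24 to 0.11) and -0.08 (95% interval -0.85 to 0.68). These intervals are wide, so smaller differences were not detectable at this depth. Cyp24a1, which inactivates vitamin D, gave 12 counts in all. Of the 3 enzymes that clear retinoic acid, Cyp26b1 was tested, with 17.8 ± 2.71 CPM in young mice against 16.2 ± 2.68 CPM in old mice (SD, n = 5 and n = 4), with a log2 fold change of -0.12 (95% interval -0.38 to 0.14). Cyp26a1 and Cyp26c1 gave 32 and 24 counts. Among 18 other retinoid genes, 14 were tested and 0 passed with edgeR or with DESeq2, while 2 had an unadjusted edgeR p under 0.05.

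Per length of exon, the most abundant members in young brain were Cyp2d22 at 7.80 ± 0.661 CPM per kilobase and Cyp2j9 at 7.06 ± 0.362 (SD, n = 5), whose ranges overlapped. In old brain Cyp2d22 was at 10.3 ± 1.47 and Cyp2j9 at 7.95 ± 0.534 CPM per kilobase (SD, n = 4), and their ranges no longer overlapped. Cyp20a1, an orphan P450 of unknown substrate, and Cyp2j6 followed with 5.23 ± 0.579 and 4.93 ± 0.389 CPM per kilobase in young brain, which did not differ beyond their spread. The next levels in young brain, from 4.58 to 4.09 CPM per kilobase, were those of Cyp27a1, Cyp7b1, Cyp4f15 and Cyp4x1. Of the 3 members past the fold threshold none was abundant, with levels in young brain of 0.425 for Fmo2, 0.766 for Cyp1b1 and 0.716 CPM per kilobase for Cyp11a1. The coefficient of variation within an age had a median of 11.1% over tested members in young and 12.3% in old mice. Cyp1b1 had the lowest value in young mice (4.31%) and Cyp2e1 the highest in both ages (51.9% and 102%).

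**Figure D4:**
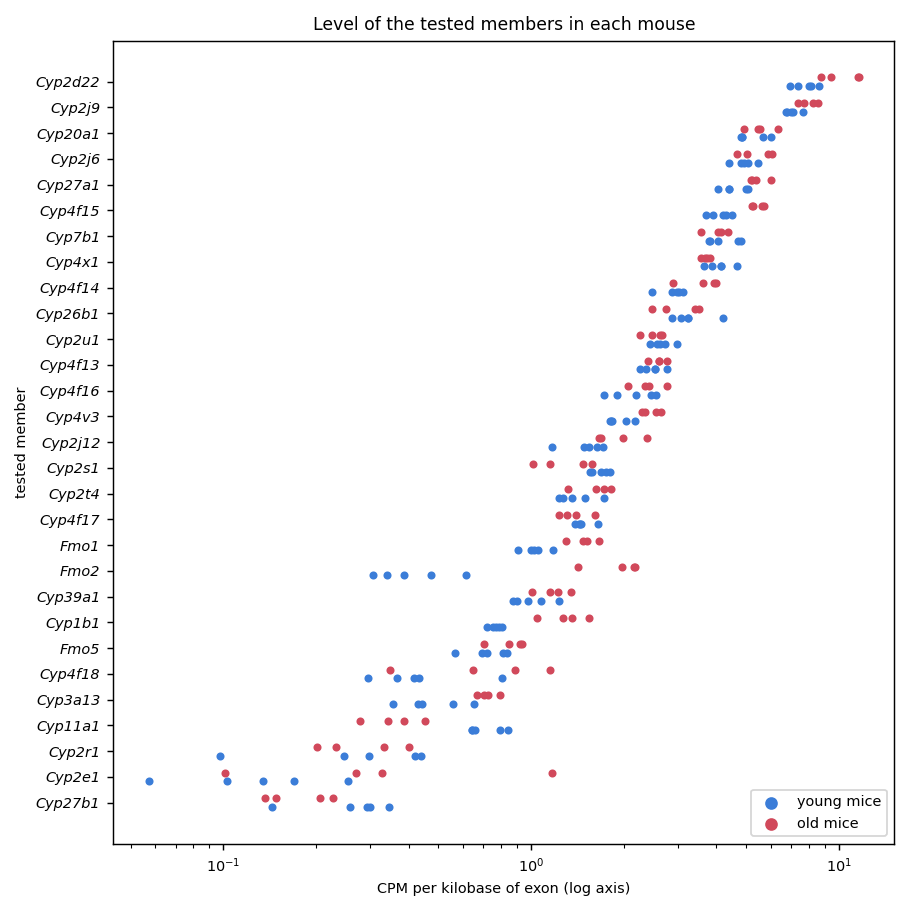
Level of the 29 tested members in CPM per kilobase of exon (horizontal log axis), with 1 point per mouse (young, blue; old, red) and members ordered by their mean over all mice. Cyp2d22 and Cyp2j9 were at the top and Cyp27b1 at the bottom, and Fmo2 showed the widest separation between ages among members with no overlap.

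Most members were hardly detected in brain. Of the 70 that were not tested, 25 had 0 counts in all 9 libraries, 29 had 1 to 10 counts in total and 16 had more, up to 49 for Cyp2f2. A count of 0 in a library allowed up to 0.145 to 0.211 CPM, for counting error only. Members at 0 included the liver enzymes Cyp1a2, Cyp2b9 and Cyp4a14. The tested members rested on 94 to 5471 counts over the 9 libraries.

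**Figure D5:**
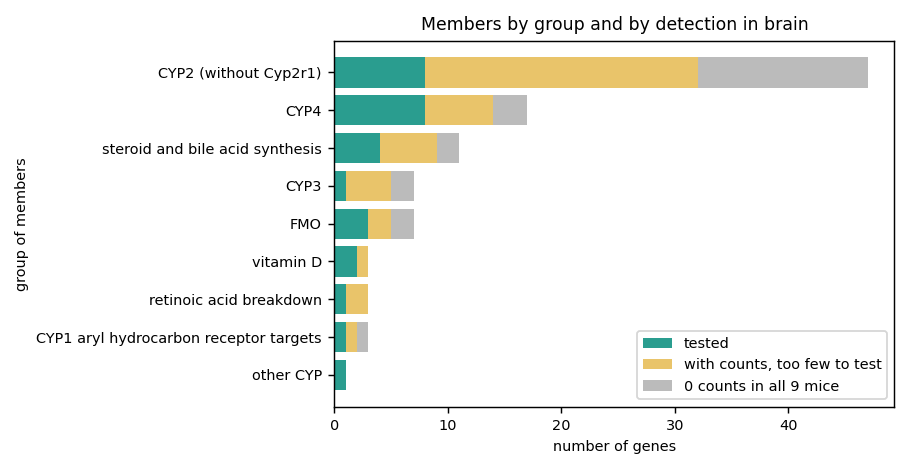
Number of members (horizontal axis, from 0) in each functional group that were tested, had counts but too few to test, or had 0 counts in all 9 mice. The CYP2 group held 8 tested members of 47 and the CYP4 group 8 of 17.

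Among genes whose products serve P450 enzymes, 2 lists were counted. Of 10 genes of electron supply, 1 passed, the cytochrome b5 reductase gene Cyb5r3, which held 62.6 to 69.8 CPM in young and 79.9 to 84.5 CPM in old mice (log2 fold change 0.29, edgeR, Benjamini-Hochberg adjusted p = 0.00029). Por had a log2 fold change of 0.07. Of 8 genes of heme synthesis, 1 passed, Alas1, the rate-limiting enzyme outside red cells (log2 fold change 0.19, edgeR, Benjamini-Hochberg adjusted p = 0.014), and 4 had an unadjusted p under 0.05, where 25.5% of all tested genes did. The calls of both lists were near the share of all tested genes called, 11.0%.

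Among 15 epoxide hydrolases and eicosanoid enzymes, which act on the same lipids as CYP2J and CYP4F enzymes, 13 were tested and 6 were higher, none lower. Of all tested genes, 6.09% were higher and 4.89% lower. The prostaglandin synthases Ptgs1, Ptgds and Ptgs2 had log2 fold changes of 0.42, 0.30 and 0.58 (edgeR, Benjamini-Hochberg adjusted p = 0.0017, adjusted p = 0.014 and adjusted p = 0.016). The remaining higher genes were Alox5, Tbxas1 and Hpgds. Without young mouse 1, young mouse 3 or old mouse 4, 3 genes of this list were called. The epoxide hydrolases Ephx1 and Ephx2 had log2 fold changes of 0.19 and 0.07 and did not pass. Of 16 other oxidation and conjugation enzymes, 14 were tested, 3 were higher (Sult1a1, Xdh and Inmt, with log2 fold changes of 0.93, 1.27 and 0.94) and 1 was lower (Sult4a1, -0.17).

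In whole brain, fewer cells of a type and less RNA per cell cannot be told apart, and the levels of marker lists are given beside the members. The summed level of 8 endothelial genes was 271 to 287 CPM in young and 305 to 330 CPM in old mice, with 4 genes higher. For 8 pericyte and smooth muscle genes it was 219 to 251 and 232 to 273 CPM, with 2 higher, and for 8 meningeal and perivascular fibroblast genes 221 to 254 and 208 to 316 CPM, with none called and 2 at an unadjusted p under 0.05. Microglial genes summed to 208 to 297 CPM in young and 285 to 309 CPM in old mice, with 2 of 8 higher. Blood and neutrophil genes summed to 87.3 to 117 CPM in young and 130 to 482 CPM in old mice, with 3 of 8 higher. Ependymal genes summed to 28.1 to 38.6 CPM in young and 23.1 to 28.9 CPM in old mice, with 1 of 8 lower. Oligodendrocyte genes summed to 6177 to 7242 CPM in young and 6730 to 8311 CPM in old mice, with 2 of 8 higher and 1 lower. Sums of 8 astrocyte, 8 neuron, 8 choroid plexus and 8 olfactory bulb genes overlapped between ages, with 2 neuron genes lower and no other call. For comparison, 6.09% of all tested genes were higher and 4.89% lower. No marker of these lists was at 0 in all libraries. Their part in the rise of Fmo2, Fmo1, Cyp1b1, Cyp2d22, Cyp4f15 and Cyp4v3 and in the fall of Cyp11a1 was not tested. Without young mouse 4, which had the highest microglial sum of the young mice, the 6 higher members and the lower member were the same genes. This fit cannot show the part of microglia, since the other young mice had lower sums. Cyp4v3 lost its call without some other single mice, as given above.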

How the data were processed

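RNA-seq of 5 young and 4 old whole brains was used, with 14229259 to 21150439 counts per library. According to the methods, the authors trimmed reads of polyA-selected RNA with Trimmomatic, aligned them with STAR (Ensembl GRCm38) and summed unique reads over exons with featureCounts. The deposited gene counts are raw, whole numbers. The deposited normalized counts are a signal for which the authors divided counts by a size factor per library, and for TPM, which the authors also deposited, the gene lengths are not given in the sources used here. In each table, 1 column of per-sample values, labeled as an old mouse, had no listed sample and was not used here. The study gives 5 biological replicates for its transcriptome comparison, while 4 old mice were used here. Reads shared by near-identical genes were not counted by the authors. Whether counting used strand is not given for these libraries, so members overlapped on the opposite strand (Cyp2s1, Cyp2t4, Cyp2u1, Cyp4f18 and Cyp4x1) are uncertain.

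Genes were kept with filterByExpr (minimum count 10, minimum total count 15), normalized with TMM and compared with edgeR 4.0.16 (quasi-likelihood test, robust shrinkage, R 4.3.3) with Benjamini-Hochberg adjustment over 18492 genes, at an adjusted p under 0.05. The fit was tested on simulated counts. CPM used TMM library sizes, and standard errors came from the fold change and test statistic. Symbols and positions came from GENCODE M21, and 345 gene IDs had no symbol. Alternatives used DESeq2 1.42.0, limma 3.58.1 on normalized counts and on TPM with pseudocounts of 0.1 and 1, other size factors and filters, a replicate block and each mouse left out. Samples with the same label number are not stated to be littermates or one batch. The study's methods describe RNA from individual brains and N as biological replicates, so each library was taken as a replicate. Libraries of one age differed by more than sampling noise (chi-square per degree of freedom at least 4.04), which alone does not show that they are different mice. Nothing further is stated on the animals' litters, so p-values measure the spread between these mice.

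The members and gene lists were chosen with earlier results of these data known. Members are named if called, among the 10 highest levels or the highest in their group, others where space allowed, with up to 3 called genes by adjusted p from each pathway list. Genes named beyond this were chosen after their values were seen. Some genes under this rule are left out and not reported here.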

Additional observations from a re-analysis of the deposited data

How the results depend on the processing

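Fmo2 and Cyp11a1 kept their calls in all 11 alternative fits and with each mouse left out. On log2(TPM + 0.1) and log2(TPM + 1), tested with limma, 2 members were higher (Fmo2 and Cyp2e1), the member medians were 0.0257 and 0.0180, and with the fold threshold 1 member was higher at a pseudocount of 1. Electron supply, heme synthesis, receptor and eicosanoid lists then held 0 calls and the retinoid list 1. Log2 fold changes reversed there for Cyp2j6 (-0.03535 and -0.0341) and Cyp20a1 (-0.0754 and -0.0713). The cause of the other differences was not tested. Without a filter on low counts, 74 members were tested, 9 were higher (with Cyp2a5, Cyp2e1 and Cyp3a11), 2 lower (with Cyp2s1) and 5 higher past the fold threshold, the median was 0.12 and the retinoid list held 1 call. All 8 counts of Cyp3a11 were in old mouse 5, as were 43 of the 95 counts of Cyp2e1. Cyp2a5 was named because its few counts were seen to separate the ages, so its call here is no independent result.

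With each mouse left out in turn, 5 to 7 members were higher and 1 to 2 lower, 2 to 4 were higher past the fold threshold, with 4 without old mouse 4, and the median was 0.15 to 0.22. Calls were 1 to 2 in heme synthesis, 1 in the receptor list, 0 to 1 in the retinoid list and 3 to 6 in the eicosanoid list. The receptor list also held 1 call without robust shrinkage (chosen after seeing the data), with upper quartile factors and with limma on normalized counts, and heme synthesis 2 at a minimum count of 20. Cyp2r1 changed sign with limma on normalized counts (0.05715) and without old mouse 1, old mouse 4, young mouse 2 or young mouse 5, with a range of -0.278 to 0.0732 over mice left out.

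Deviations of mice with the same number from their group means correlated at 0.17, -0.12, 0.09 and -0.02, and only mice 1 correlated best with their own number. With the replicate block, 4 members were higher and 1 lower, Cyp2d22 (log2 fold change 0.37, edgeR, adjusted p = 0.050) and Cyp4v3 (0.32, adjusted p = 0.085) were not called, the receptor and retinoid lists held 1 call each and Cyp2r1 was at 0.0670. Cyp27b1 and Cyp2e1 rested on the fewest counts of the tested members, 94 and 95 over all libraries.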

Other observations

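Among 15 members, the 7 called and the 10 of highest level with 2 in both, no mouse stood apart from its age group in any of 30 combinations of member and age by Dixon's test, where chance gives about 1 in 20.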
